A study of Mus musculus with 9 samples.

Results

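The genes T, Mixl1, Fgf8, Evx1, Mesp1, Tbx6, Lhx1, Cdx1, Cdx4 and Nkx1-2 were examined as a set of primitive streak and caudal genes in lines described as mouse epiblast stem cells. They were chosen by mouse symbol, and all 10 were found among the 52609 genes to which the transcripts were assigned. Transcript levels were measured by stranded mRNA sequencing in 9 libraries of 4 lines, grown on inactivated mouse embryonic fibroblasts as feeder cells with Knockout Serum Replacement. The medium of all 4 lines contained 20 ng/mL Activin A together with 10 ng/mL FGF2. The Dkk1_KO line (3 libraries) carried a knockout of Dkk1, which encodes a secreted inhibitor of Wnt signalling. The IWP2 line (2 libraries) was kept in 5 µM IWP2, a compound that blocks Porcupine and with it the secretion of Wnt ligands. In the IWP2_removed line (2 libraries) the compound was withdrawn after derivation, and the control line (2 libraries) had neither change. Each condition was 1 line, so line and treatment or knockout cannot be told apart. The labels do not say that replicates came from separate cultures, so p-values measure only the spread between these libraries.

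The primitive streak is the region of the gastrulating embryo where epiblast cells leave the epithelium to form mesoderm and endoderm. Wnt, Nodal and FGF signals induce it, and canonical Wnt signalling through Tcf/Lef factors is known to activate T directly. As the axis extends, caudal genes remain on in the tail-end epiblast, where progenitors keep producing spinal cord and paraxial mesoderm. Primed epiblast stem cells in culture are known to include cells that express streak genes. In bulk libraries, fewer expressing cells and less RNA per cell cannot be told apart.

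The sequences just upstream of T, Nkx1-2 and Lhx1 are shown because each was higher in the first than in the second replicate of all 3 lines outside Dkk1_KO, described further on. They are the 250 bases before the RefSeq start, written 5′ to 3′ on the strand of the gene, from mouse build GRCm38.p6. The T stretch lies at chr17:8434173-8434422 on the plus strand, the Nkx1-2 stretch at chr7:132599638-132599887 on the minus strand, and the Lhx1 stretch at chr11:84525535-84525784 on the minus strand. Capitals mark the caudal (Cdx) motif TTTATGG.
T: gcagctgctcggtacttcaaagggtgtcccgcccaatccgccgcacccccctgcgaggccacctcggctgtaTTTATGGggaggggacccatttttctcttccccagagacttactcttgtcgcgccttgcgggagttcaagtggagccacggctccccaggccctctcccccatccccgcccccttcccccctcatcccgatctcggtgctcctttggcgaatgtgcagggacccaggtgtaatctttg
Nkx1-2: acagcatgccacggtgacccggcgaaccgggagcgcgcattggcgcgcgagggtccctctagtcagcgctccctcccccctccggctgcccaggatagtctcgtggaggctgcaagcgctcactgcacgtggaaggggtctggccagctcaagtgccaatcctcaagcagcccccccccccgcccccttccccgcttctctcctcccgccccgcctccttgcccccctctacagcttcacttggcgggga
Lhx1: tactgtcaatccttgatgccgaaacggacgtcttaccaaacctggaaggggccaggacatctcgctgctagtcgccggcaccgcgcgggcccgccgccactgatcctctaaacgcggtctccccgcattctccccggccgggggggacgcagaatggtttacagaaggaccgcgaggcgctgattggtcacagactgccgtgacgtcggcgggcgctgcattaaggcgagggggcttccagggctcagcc
The following motifs were searched on both strands without overlap between them: the Tcf/Lef motif CTTTGAT, the T-box motif TCACACC and the caudal motif TTTATGG. The T promoter held 1 caudal match, 178 to 172 bases before the start, a motif found in 2.43% of the 32851 promoters of the same length. Nkx1-2 and Lhx1 held no match to any of the motifs. Of the 7 members whose promoter was searched, Mesp1 alone held a match to this Tcf/Lef motif, against 3.21% of all promoters. It lay 31 to 25 bases before the RefSeq start. In the annotation used for the counts, the Mesp1 gene reaches base 79793788 of chromosome 7, so the match lies inside that gene. None of the 7 held the T-box motif, which 3.33% of all promoters hold. The promoters of Mixl1, Fgf8 and Cdx1 were not searched, so their motifs are not known here. The Lhx1 promoter held 26 CpG dinucleotides, Nkx1-2 19 and T 14, against a median of 6 over all promoters.

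The libraries held 10849490 to 17892751 estimated reads. A count of 0 allows up to 3 reads, or 0.167 to 0.267 CPM per library (CPM are reads scaled to a common library total), which covers counting error only. Dkk1 itself had 10, 11 and 16 reads in the Dkk1_KO libraries, against 76 and 144 reads in the control libraries, and was lower in Dkk1_KO (log2 fold change -3.13 ± 0.68 SE, adjusted p = 0.00597, edgeR quasi-likelihood test with Benjamini-Hochberg adjustment). Dkk1 had 52 and 6 reads in IWP2 and 57 and 93 in IWP2_removed, so IWP2 replicate 2, at 0.349 CPM, lay below the Dkk1_KO libraries, at 0.701 to 1.13 CPM. The sources used here do not say which part of the gene was deleted. The 3 Dkk1_KO libraries differed from each other close to sampling noise (chi-square per degree of freedom 1.79 to 2.27), against 32.9 for the control pair, 39 for the IWP2_removed pair and 94.4 for the IWP2 pair. In Pou5f1 and in trophoblast genes the Dkk1_KO libraries also went against the label of epiblast stem cells. Pou5f1, a core pluripotency factor, averaged 1.39 ± 0.284 CPM in Dkk1_KO and 457 ± 21.3 CPM in control (SD, n = 3 and 2). Of 10 primed epiblast genes, 3 were higher and 5 lower in Dkk1_KO. Their sum was 985 to 1040 CPM there, against 1430 to 1510 CPM in control, and 1010 and 2310 CPM in IWP2. A summed list of 12 trophoblast genes stood at 3520 to 3570 CPM in Dkk1_KO libraries, against 70.9 to 134 CPM in control libraries.

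Of the 10 genes, T and Fgf8 were the most abundant per transcript length, Nkx1-2 and Lhx1 were intermediate, and the others stayed at or below 2.16 TPM, a level scaled for transcript length. T, the T-box factor Brachyury that marks the whole streak, lies on chromosome 17 (GRCm38). It stood at 1.8, 1.01 and 1.83 TPM in the Dkk1_KO libraries, 78.3 and 11.6 TPM in IWP2, 27.9 and 13.7 TPM in IWP2_removed, and 56.3 and 24.1 TPM in control. Dkk1_KO was below every other library, a separation not counted over all genes, while the ranges of the other 3 lines overlapped. Fgf8, a secreted FGF needed for cells to leave the streak, had 0.327, 0.237 and 0 TPM in Dkk1_KO, 56.7 and 63.4 TPM in IWP2, 83.4 and 77 TPM in IWP2_removed, and 57.5 and 26.3 TPM in control. The IWP2_removed libraries lay above all others, which was likewise not counted over all genes. Control replicate 2 was the lowest of the 6 libraries outside Dkk1_KO.

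Nkx1-2, a homeobox gene of the caudal epiblast and early neural plate, had 0, 0.015 and 0 TPM in Dkk1_KO, 3.07 and 0.852 TPM in IWP2, 7.74 and 2.93 TPM in IWP2_removed, and 5.07 and 1.3 TPM in control. Its reads are uncertain, because the gene overlaps Fgfr2 on the same strand and the antisense gene Gm16764. Lhx1, a LIM homeobox factor of the anterior streak and its mesendoderm, had 0.312, 0.0504 and 0.0884 TPM in Dkk1_KO, 4.46 and 1.27 TPM in IWP2, 2.19 and 0.94 TPM in IWP2_removed, and 4.07 and 2.19 TPM in control. For both genes Dkk1_KO did not overlap any other line, a separation not counted over all genes, and the first replicate of each other line was the higher. Mixl1, a homeobox gene of nascent mesendoderm, had 0.466, 0.397 and 0.391 TPM in Dkk1_KO, 0.909 and 0.0989 TPM in IWP2, 2.16 and 0.543 TPM in IWP2_removed, and 2.05 and 0.0786 TPM in control. Here the Dkk1_KO libraries lay inside the range of the control line.

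Tbx6, the T-box factor of presomitic mesoderm, was low throughout, at 0.285 to 0.353 TPM in Dkk1_KO, 0.342 to 0.402 TPM in IWP2, 0.36 to 0.647 TPM in IWP2_removed and 0.274 to 0.433 TPM in control. All 4 lines overlapped. Cdx1, a caudal homeobox gene that activates Hox genes, had 0.691, 0.932 and 0.925 TPM in Dkk1_KO and at most 0.135 TPM in any other library. Evx1, a homeobox gene of the posterior streak, had 11 reads in Dkk1_KO, 18 in IWP2, 9 in IWP2_removed and 0 in control, and it overlaps the antisense gene Evx1os. Mesp1, the factor of the first cardiac and cranial mesoderm, had 4 reads in all, 1 in IWP2_removed and 3 in control. Cdx4, the X-linked caudal gene, had 0 reads in all 9 libraries, which allows up to 0.022 CPM over them together.

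**Figure D1:**
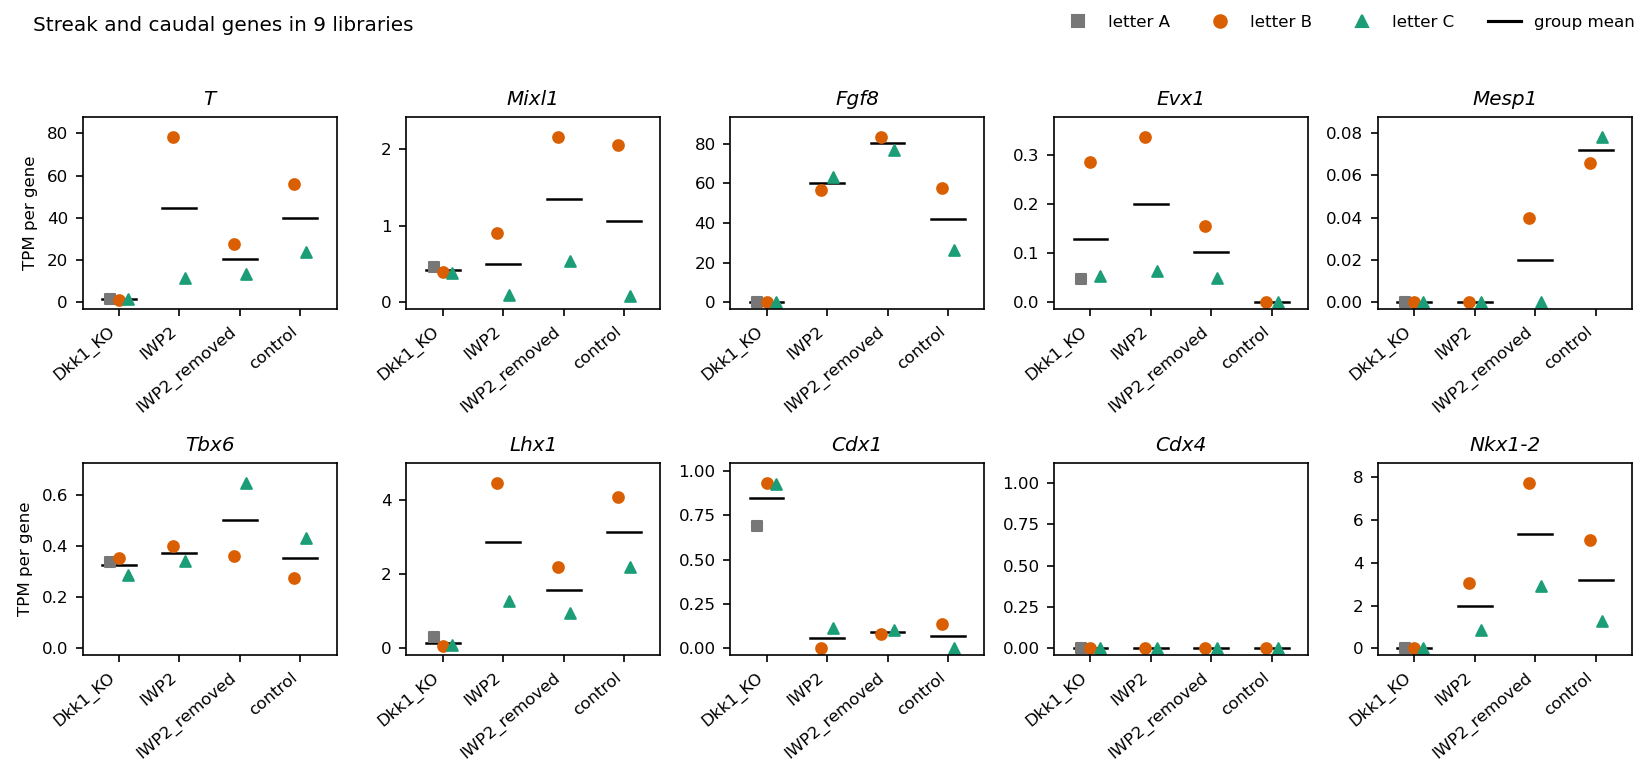
Level of each of the 10 genes in every library, in TPM, with libraries grouped by line. Each point is 1 library and each bar is the mean of a line. T, Fgf8, Nkx1-2 and Lhx1 are near 0 in Dkk1_KO. T, Nkx1-2 and Lhx1 are spread between the replicates of the other lines, Fgf8 mainly in control, and Cdx1 is highest in Dkk1_KO.

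The genes did not rest equally on their annotated transcripts. Over the 6 libraries outside Dkk1_KO, a transcript of 2046 bases carried 57.4% to 71.7% of the TPM of T. The shortest Fgf8 transcript, at 630 bases, carried 46% to 55.8% of the TPM of Fgf8. Both genes thus kept the same leading transcript in each of those libraries. Lhx1 did not: its shortest transcript, at 382 bases, carried 0% to 63.8% of its TPM, with a median of 43%. By counts and by TPM the lines stood in a different order for Lhx1, with mean levels of 7.51 CPM in IWP2_removed and 6.96 CPM in control but 1.57 TPM in IWP2_removed and 3.13 TPM in control.

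The knockout comparison set the line labelled as a Dkk1 knockout against the control line. The streak and caudal genes T, Fgf8, Nkx1-2 and Lhx1, were lower in Dkk1_KO, and the caudal gene Cdx1 was higher. Of the 10 members 7 passed the filter on low counts, and 5 were called at an adjusted p below 0.05, against 44.3% of all 18096 genes tested. Much of the transcriptome was therefore called in the same contrast, 21.3% of genes higher and 23% lower in Dkk1_KO.

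T averaged 2.97 ± 0.475 CPM in Dkk1_KO and 78 ± 35 CPM in control (SD, n = 3 and 2), giving -4.71 ± 0.65 on the log2 scale (SE; adjusted p = 5.93e-04, edgeR quasi-likelihood test). Fgf8 averaged 0.146 ± 0.127 CPM in Dkk1_KO and 34.2 ± 14 CPM in control, and its log2 fold change of -7.80 ± 0.50 was the largest that did not rest on a single read (adjusted p = 1.08e-05 by edgeR). Lhx1 averaged 0.312 ± 0.104 CPM in Dkk1_KO and 6.96 ± 2.11 CPM in control, or -4.44 ± 0.59 on the log2 scale (adjusted p = 4.81e-04 by edgeR). In each of the 3 genes every Dkk1_KO library lay below every control library, and the share of all genes that do so was not counted. Nkx1-2 had 1 read over the 3 Dkk1_KO libraries and 324 reads over the 2 control libraries, a ratio of 0.00203 with a 95% counting interval of 5.12e-05 to 0.0114 (adjusted p = 4.54e-04 by edgeR).

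Cdx1 had 89 reads in Dkk1_KO and 3 reads in control, all 3 in control replicate 1, a ratio of 19.5 with a 95% counting interval of 6.46 to 96.3 (adjusted p = 0.0122 by edgeR). The call was lost when the 3 Dkk1_KO libraries were averaged to 1 (adjusted p = 0.116) and without control replicate 2 (adjusted p = 0.0712 by edgeR). Mixl1 (log2 fold change -0.96 ± 1.11, adjusted p = 0.52 by edgeR) and Tbx6 (0.03 ± 0.45, adjusted p = 0.97 by edgeR) did not pass the test. For Mixl1 that interval is wide, since the control replicates stood at 5.52 and 0.25 CPM. Evx1, with 11 reads in Dkk1_KO and 0 in control, was at least 2.41-fold higher in Dkk1_KO against a floor of 3 reads over the control group, and its 95% counting interval began at 1.65-fold. It did not pass the filter on low counts, and without that filter it was called (adjusted p = 0.0215 by edgeR), making 6 members called.

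Other genes of the same pathways moved in both directions. Of 14 other primitive streak genes 13 were tested, 3 were higher and 5 lower in Dkk1_KO. The 14 summed to 352 to 354 CPM in the Dkk1_KO libraries, against 356 and 178 CPM in the control libraries, so their total was not below both. Wnt8a and Foxa2 were among the 5 lower. The Wnt ligand gene Wnt8a averaged 0.0725 ± 0.0708 CPM in Dkk1_KO and 71.9 ± 38.2 CPM in control, on 3 and 1834 reads. Foxa2, a factor of anterior streak and endoderm, averaged 2.75 ± 0.378 CPM in Dkk1_KO and 49.2 ± 5.08 CPM in control. Of 15 other caudal genes 14 were tested and 11 were lower, among them the Wnt target Sp8 at 0.0469 ± 0.0407 CPM in Dkk1_KO and 25.6 ± 3.39 CPM in control. Cdx2, which marks both trophoblast and the caudal embryo, was the only gene of these 15 called higher, at 88 ± 4.66 CPM in Dkk1_KO and 0.329 ± 0.29 CPM in control.

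Of 12 presomitic mesoderm genes 10 were tested, 2 were higher and 6 lower in Dkk1_KO, including the Notch modulator Lfng at 2.02 ± 0.213 CPM in Dkk1_KO and 19 ± 1.8 CPM in control. Of 11 Wnt target genes 1 was higher and 7 lower. Dkk1 is itself among those 11. Lef1, a nuclear effector of the pathway, averaged 0.578 ± 0.0774 CPM in Dkk1_KO and 9.64 ± 0.161 CPM in control. Of 10 FGF and ERK feedback genes none was higher and 5 were lower, Spry2 standing at 23.1 ± 1.62 CPM in Dkk1_KO and 106 ± 39.3 CPM in control. The median log2 fold change was -4.44 over the 7 tested members, -1.23 over the other streak genes, -2.09 over the other caudal genes and -1.24 over the Wnt targets, against -0.03 over all genes tested.

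Marker genes of other cell types moved in this contrast with the members. Of 12 trophoblast genes 11 were higher in Dkk1_KO, of 12 feeder fibroblast genes 9 were lower, and of 10 neural genes 1 was higher and 5 lower. Of 10 primed epiblast genes 3 were higher and 5 lower, with Nanog at 2 ± 0.167 CPM in Dkk1_KO and 169 ± 0.604 CPM in control. The summed epiblast markers stood at 985 to 1040 CPM in Dkk1_KO, against 1430 to 1510 CPM in control, and the summed feeder markers at 2290 to 2350 CPM in Dkk1_KO, against 3720 to 4470 CPM in control. Neural markers summed to 121 to 123 CPM in Dkk1_KO and 373 to 441 CPM in control. Their part in the change of the members was not tested.

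**Figure D2:**
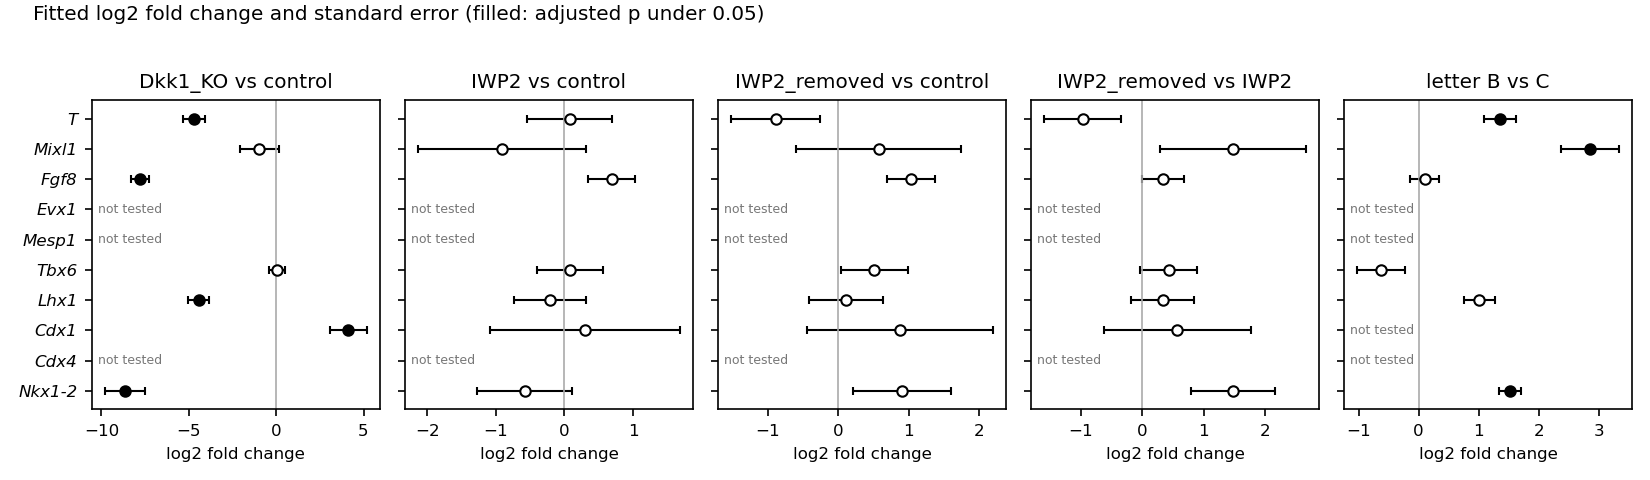
Log2 fold change of each tested member in every comparison, with its standard error, from the edgeR fit. Filled symbols mark an adjusted p below 0.05. The values of Nkx1-2 and Cdx1 in Dkk1_KO against control rest on 1 and 3 reads in the lower group. T, Fgf8, Lhx1 and Nkx1-2 lie far below 0 in that comparison, while no member is called in the 3 comparisons that involve IWP2.

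The comparison of IWP2 with control addresses the same genes in the line kept in the inhibitor of Wnt secretion. No member was called by the edgeR quasi-likelihood test, against 2.19% of all genes tested. None had an unadjusted p under 0.05, against 16.4% of all genes, and DESeq2 and limma called none either. T averaged 82.2 ± 76.2 CPM in IWP2 and 78 ± 35 CPM in control (SD, n = 2 each), or 0.08 ± 0.62 on the log2 scale (SE; adjusted p = 0.974 by edgeR). Its sign turned under a block by the letter that the file names carry, at -0.13, and without IWP2 replicate 1 (-1.46) or control replicate 2 (-0.29). The letter B marks the first and C the second replicate in each of these lines, and the labels do not say what it stands for.

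Within a letter the T libraries went opposite ways. In library B, T stood at 1.32 times control in IWP2 (136 against 103 CPM, 95% counting interval 1.23 to 1.42), and in library C at 0.533 times control (28.4 against 53.3 CPM, interval 0.476 to 0.596). Fgf8 was close to control in library B at 1.02 times (45 against 44.1 CPM) and above it in library C at 2.67 times (64.8 against 24.3 CPM). Nkx1-2 was lower in IWP2 within both letters, at 0.646 and 0.724 times control, with a log2 fold change of -0.58 ± 0.69 (adjusted p = 0.757 by edgeR). Lhx1 was at 1.06 times control in library B (interval 0.816 to 1.38, which includes no change) and at 0.552 times in library C (0.384 to 0.786). Evx1, with 18 reads in IWP2, was at least 4.66-fold higher against the same floor, and its 95% counting interval began at 3.41-fold over the group. It was called only where low counts were not filtered (adjusted p = 0.0197) or without IWP2 replicate 2. Mixl1, Tbx6 and Cdx1 had log2 fold changes of -0.91 ± 1.22, 0.08 ± 0.48 and 0.30 ± 1.38.

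IWP2_removed against control asks whether these genes differ in a line derived in the inhibitor and then grown without it. No member was called by edgeR, DESeq2 or limma, against 1.25% of all genes tested by edgeR, and 1 member had an unadjusted p under 0.05, against 11.9% of all genes. That member was Fgf8, which averaged 69.4 ± 0.315 CPM in IWP2_removed and 34.2 ± 14 CPM in control (SD, n = 2 each), a difference of 1.03 ± 0.34 on the log2 scale (adjusted p = 0.26 by edgeR). Its 4 libraries did not overlap between the lines, a separation not counted over all genes. Within both letters Fgf8 stood above control, at 1.57 times in B and 2.86 times in C. The Fgf8 call came only with no filter on low counts (adjusted p = 0.00465 by edgeR).

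T averaged 42.1 ± 16.9 CPM in IWP2_removed and 78 ± 35 CPM in control, and was lower within both letters, at 0.526 times control in B and 0.566 times in C (log2 fold change -0.89 ± 0.63, adjusted p = 0.698 by edgeR). Nkx1-2 stood the other way, at 1.71 and 2.3 times control within letters B and C (0.90 ± 0.69, adjusted p = 0.724 by edgeR). So T and Nkx1-2 differed in the sign of their fold change while both kept the same sign in each letter. Lhx1, Mixl1, Tbx6 and Cdx1 had log2 fold changes of 0.11 ± 0.52, 0.57 ± 1.17, 0.51 ± 0.48 and 0.87 ± 1.32. Evx1, with 9 reads in IWP2_removed, was at least 2.53-fold higher against the floor, and its counting interval began at 1.66-fold. Within letters B and C the intervals of Evx1 began at 0.8 and 0.418, on 6 and 3 reads, and included no change. Without the filter on low counts Evx1 was not called here (adjusted p = 0.15 by edgeR).

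IWP2_removed against IWP2 compares the lines with the inhibitor withdrawn and kept. No member was called by edgeR, DESeq2 or limma, against 0.0608% of all genes tested by edgeR, and none had an unadjusted p under 0.05, against 9.69% of all genes. Nkx1-2 averaged 24.3 ± 14.5 CPM in IWP2_removed and 8.72 ± 6.07 CPM in IWP2 (SD, n = 2 each; log2 fold change 1.48 ± 0.69, adjusted p = 0.562 by edgeR). The ratio was alike within the letters, at 2.65 in B (interval 2.27 to 3.1) and 3.18 in C (2.44 to 4.18). The Nkx1-2 call came only with no filter on low counts (adjusted p = 0.0205 by edgeR).

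T stood at 0.398 times its IWP2 level in library B and at 1.06 times in library C, so only library B was below IWP2 (log2 fold change -0.97 ± 0.63, adjusted p = 0.756 by edgeR, and 0.57 without IWP2 replicate 1). Fgf8 was 1.54 times its IWP2 level in B and 1.07 times in C. Mixl1 was above IWP2 in both letters, at 2.5 times on 108 and 47 reads in B and 5.05 times on 28 and 6 reads in C. Lhx1 was 1.08 and 1.77 times IWP2 in B and C.

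**Figure D3:**
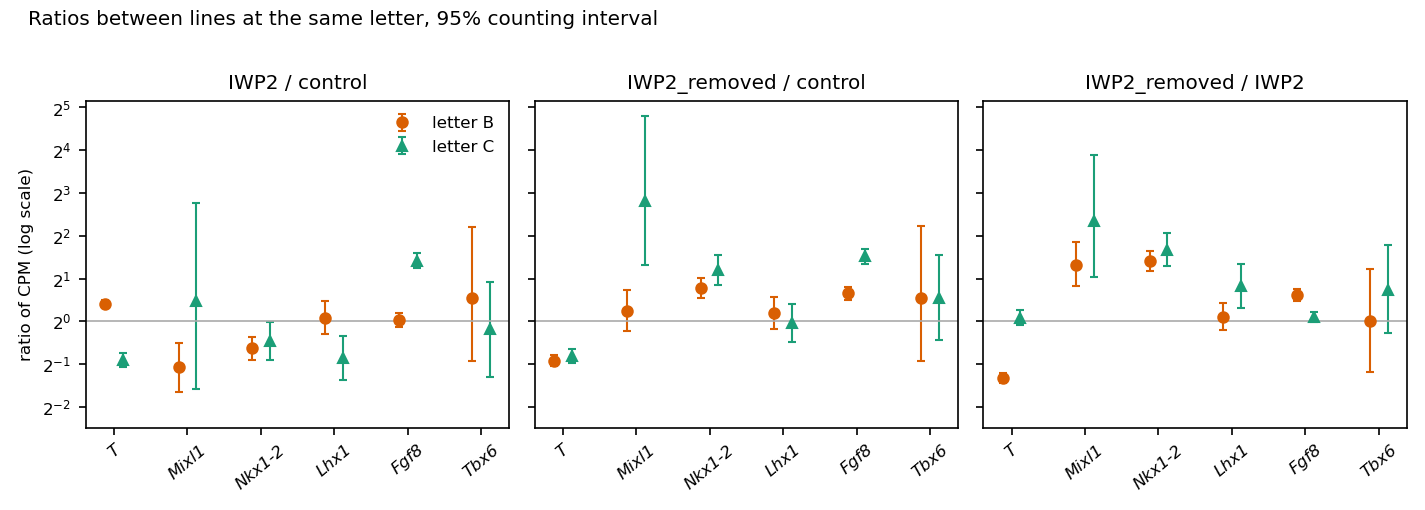
Ratio of the level of T, Mixl1, Nkx1-2, Lhx1, Fgf8 and Tbx6 between 2 lines within the same letter, on a log2 scale, for the 3 comparisons that involve IWP2. The other members are not shown. Each point is 1 library over 1 library, and bars are 95% counting intervals. T and Fgf8 differ between the letters in IWP2 over control, and Nkx1-2 in IWP2_removed over IWP2 lies close to the same value in both.

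Of the other pathway genes, few were called in these 3 comparisons. Among 15 other caudal genes, Cyp26a1, the retinoic acid degrading enzyme of the caudal embryo, was lower and Hoxb9, a posterior Hox gene, was higher in both lines with a history of IWP2. Cyp26a1 averaged 3.49 ± 0.0938 CPM in IWP2 and 4.78 ± 0.432 CPM in IWP2_removed, against 19.8 ± 6.31 CPM in control, with adjusted p of 0.00438 and 0.0135 by edgeR. Hoxb9 averaged 28.7 ± 5.98 CPM in IWP2 and 35.1 ± 8.61 CPM in IWP2_removed, against 6.9 ± 0.969 CPM in control, with adjusted p of 0.00649 and 0.00787 by edgeR. These comparisons share the control libraries, and all 9 libraries set the spread. In a fit of the 6 libraries outside Dkk1_KO, 12 genes in all were called in IWP2 and 1 in IWP2_removed, against control. So Cyp26a1 and Hoxb9 cannot both have kept their IWP2_removed call there. With all 9 libraries, no other streak, presomitic, Wnt target or FGF feedback gene was called by edgeR. DESeq2 called 2 presomitic genes higher in IWP2 and 1 lower in IWP2_removed, against control. Of the other caudal genes it called 2 higher and 1 lower in IWP2, and 2 higher and 2 lower in IWP2_removed. At an unadjusted p under 0.05, edgeR placed 1 other streak gene lower in each, and 4 presomitic genes higher in IWP2, with 1 presomitic gene higher and 1 lower in IWP2_removed. Of the other caudal genes it placed 3 higher and 3 lower in IWP2, and 3 higher and 2 lower in IWP2_removed. It also placed 1 Wnt target gene lower in IWP2 and 1 higher in IWP2_removed, each against control. In IWP2_removed against IWP2 it placed 1 Wnt target higher and 2 presomitic genes lower. In IWP2 against control, 10 of 11 Wnt target genes had a negative log2 fold change (median -0.30, against 0.01 over all genes). In IWP2_removed against control, 7 were negative and 4 positive (median -0.07, against 0.00). In IWP2_removed against IWP2, 2 were negative and 9 positive (median 0.29, against -0.01). These directions were not tested. Among the markers of other cell types and of epiblast, edgeR called 1 gene in these comparisons, the trophoblast keratin Krt7, with 0.786 ± 0.29 CPM in IWP2, against 2.49 ± 0.362 CPM in control. DESeq2 called 4 of 12 trophoblast genes, 1 epiblast and 1 feeder gene lower and 1 neural gene higher in IWP2 against control, and 2 trophoblast genes higher in IWP2_removed against IWP2. At an unadjusted p under 0.05 by edgeR, 5 trophoblast, 2 epiblast and 2 feeder genes were lower and 2 neural genes higher in IWP2 against control. In IWP2_removed against control, 2 feeder genes were higher and 1 trophoblast gene lower at that level. In IWP2_removed against IWP2, 4 feeder, 3 trophoblast and 1 epiblast gene were higher and 1 neural gene lower. The part of these markers in the values of the members was not tested.

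The comparison of letters set library B against library C within the 3 lines outside Dkk1_KO. T, Mixl1 and Nkx1-2 were higher in B. Lhx1 was above C and Tbx6 below C in each line, both without passing the test, and Fgf8 had no shared direction. Of the 10 members 6 were tested and 3 were called, all higher, against 7.66% of all 17214 genes tested, or 4.56% higher. B lay above C in all 3 lines for T, Mixl1, Nkx1-2 and Lhx1, and for 26.7% of the genes tested.

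T averaged 97.7 ± 41.2 CPM in B and 37.3 ± 13.9 CPM in C (SD, n = 3 each), or 1.35 ± 0.27 on the log2 scale (SE; adjusted p = 0.0304 by edgeR). The B over C ratio of T was 4.79 in IWP2 (interval 4.35 to 5.29), 1.79 in IWP2_removed (1.6 to 2.01) and 1.93 in control (1.76 to 2.11). The ratio was largest in IWP2, the line with the lowest library of T outside Dkk1_KO as well as the highest. Limma-trend on log2(TPM + 1) did not call T (adjusted p = 0.0732).

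Nkx1-2 averaged 22.6 ± 11 CPM in B and 8.17 ± 5.11 CPM in C (log2 fold change 1.52 ± 0.18, adjusted p = 0.00682 by edgeR). Its ratios lay close together, at 2.95 in IWP2, 2.46 in IWP2_removed and 3.3 in control. Mixl1 averaged 4.89 ± 2.04 CPM in B and 0.786 ± 0.844 CPM in C (2.85 ± 0.48, adjusted p = 0.0197 by edgeR). Its ratios were 7.5 in IWP2, 3.72 in IWP2_removed and 22.2 in control, the last on 62 and 4 reads. Lhx1 averaged 9.04 ± 0.614 CPM in B and 4.61 ± 1.38 CPM in C (1.01 ± 0.26, adjusted p = 0.0547 by edgeR and 0.0362 by DESeq2).

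Fgf8 averaged 52.8 ± 14.2 CPM in B and 52.9 ± 24.9 CPM in C (log2 fold change 0.10 ± 0.24, adjusted p = 0.817 by edgeR). Its ratio was 0.695 in IWP2, 0.994 in IWP2_removed and 1.81 in control, so the lines did not share a direction. Tbx6 had a log2 fold change of -0.62 ± 0.40 (adjusted p = 0.335 by edgeR). Its ratios were 0.894 in IWP2, 0.544 in IWP2_removed and 0.537 in control, on 6 to 23 reads per library, and each interval included no change. In Dkk1_KO, whose libraries carry the letters A, B and C, T was at 0.731 times C in B (interval 0.451 to 1.17) and Mixl1 at 1.02 times. With the B and C libraries of all 4 lines, edgeR called no member and no gene. Their adjusted p were then 0.178 for T, 0.177 for Mixl1 and 0.168 for Nkx1-2.

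**Figure D4:**
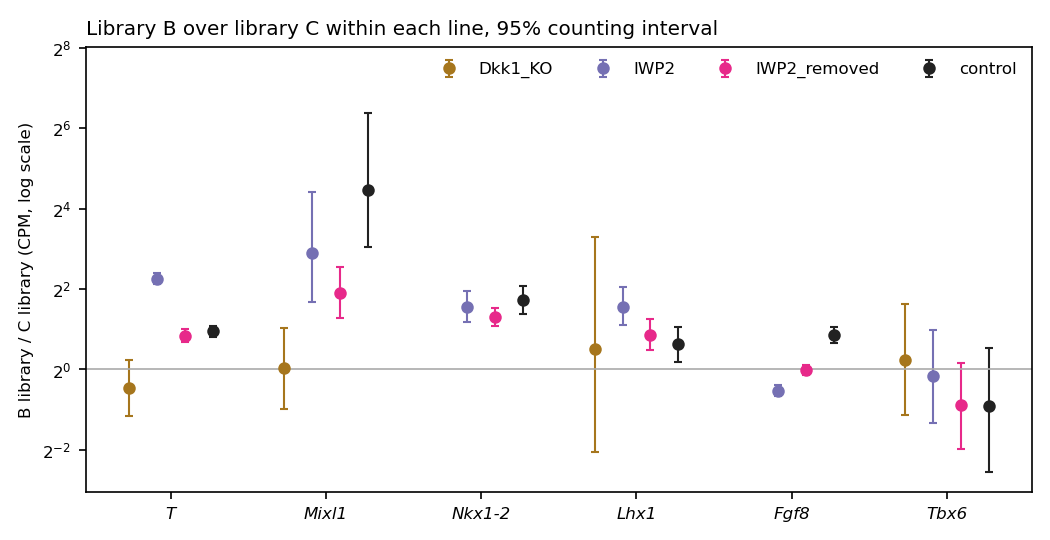
Ratio of library B to library C of T, Mixl1, Nkx1-2, Lhx1, Fgf8 and Tbx6 within each line, on a log2 scale, with 95% counting intervals. The other members are not shown. Pairs with a library at 0 reads, such as Nkx1-2 and Fgf8 in Dkk1_KO, are left out. T, Mixl1, Nkx1-2 and Lhx1 lie above 1 in the 3 lines outside Dkk1_KO, and Fgf8 lies on both sides of it.

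Other genes of the pathways were counted for the same letters. Of 14 other primitive streak genes 12 were tested and 4 were higher in B, none lower. They included Wnt3, the ligand that induces the streak, at 30 ± 10.5 CPM in B and 13.1 ± 3.25 CPM in C, and Eomes, a T-box factor of mesendoderm, at 77.1 ± 29.2 CPM in B and 28.6 ± 16.8 CPM in C. Of 15 other caudal genes 13 were tested and 2 were higher, Rspo3 and Wnt5a. Of 10 FGF and ERK feedback genes 4 were higher, with Etv4 at 50.2 ± 14.3 CPM in B and 22.3 ± 9.93 CPM in C. Of 11 Wnt target genes 1 was higher, Ccnd1, and of 12 presomitic genes, 8 of them tested, 1 was higher, Meox1. The median log2 fold change was 1.18 over the 6 tested members and 0.90 over the other streak genes, against 0.00 over all genes tested.

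Some markers of other cells and states differed between the letters as well. Of 10 primed epiblast genes Fgf5 was higher in B, and Otx2 and Sox2 were lower. Of 12 feeder genes Fbln2 was higher, at 636 ± 84.5 CPM in B and 201 ± 58 CPM in C. Of 10 neural genes Nes was higher and Olig3 lower, and none of the 9 tested trophoblast genes was called by edgeR. At an unadjusted p under 0.05, 1 epiblast gene was higher and 6 lower, 3 neural genes were higher and 5 lower, 2 feeder genes were higher and 2 lower, and 3 trophoblast genes were lower. DESeq2 called 1 epiblast gene higher and 3 lower, 3 neural genes higher and 2 lower, 1 feeder gene higher and 1 lower, and 1 trophoblast gene lower. Their part in the difference of T, Mixl1 and Nkx1-2 was not tested.

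Across the 6 libraries outside Dkk1_KO, the genes most like T by Pearson correlation of log2(CPM + 1) were Ammecr1l, Pdgfc, Cnot6, Vps13d and Zbtb33. Each had r = 0.99 and ranked the 6 libraries in the same order as T, with r between 0.93 and 0.99 without IWP2 replicate 1 and control replicate 1, the libraries farthest from the median of T. A correlation of at least 0.9 was held by 379 of 11877 genes, or 3.19%, and the 6 points share lines and letters. Among the members, Lhx1 had r = 0.77 with T, Mixl1 0.51, Nkx1-2 0.39, Fgf8 -0.41 and Tbx6 -0.68. Pdgfc, a platelet-derived growth factor ligand gene, had 54.4 and 19.2 CPM in IWP2, 33.2 and 19.6 CPM in IWP2_removed, and 50.7 and 30.5 CPM in control, the same order of libraries as T. These values describe 6 libraries and carry no test.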

How the data were processed

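The authors' deposited tables give Salmon estimated counts and TPM per transcript for each library. Salmon, DESeq2 and edgeR are listed, with no version, per the submitters' processing notes, and the sources used here give no build. Transcripts were assigned to genes with GENCODE vM21 (GRCm38), which matched 133399 of 133618. The 219 unmatched held 0.117% to 0.161% of the reads. Estimated counts were summed per gene and rounded, and TPM was summed per gene. The test was the edgeR 4.0.16 quasi-likelihood test in R 4.3.3, with TMM scaling, filterByExpr and Benjamini-Hochberg adjustment over all genes tested, called at adjusted p under 0.05, in 1 fit of all 9 libraries. The letters were tested with line as a term in 6 libraries. DESeq2 1.42.0 and limma 3.58.1 (pseudocount of 1) were alternatives, with DESeq2 size factors, no filter, replicate blocks and left-out libraries. Averaging the Dkk1_KO libraries to 1 was added after seeing the data. Same-numbered libraries of the 3 lines outside Dkk1_KO deviated together from their group means (r of 0.46 to 0.68). In a group of 2 the deviations mirror each other, so replicates 1 and 2 give the same r there. The Dkk1_KO libraries did not deviate with the others, by number (-0.12 to -0.02) or by letter (-0.02 to 0.12). Intervals of ratios are exact, at 95%, for counting error only, and PCR copies are not independent molecules. The members and lists were chosen with earlier results of these data known. Named genes were the 10 members, up to 3 called genes per list and comparison with the smallest adjusted p, or with none called the gene of highest mean, and the 5 genes most like T. Not all of these are printed. Promoters come from RefSeq. The pipeline was tested on simulated counts with the same spread for all genes and groups. The unequal spread of these libraries was not simulated. SB431542 is named in the treatment protocol, and no group's label lists it.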

Additional observations from a re-analysis of the deposited data

Results flagged for a closer look

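T stood above control in IWP2 in library B, at 1.32 times, and below it in library C, at 0.533 times. Each ratio is 1 library over 1 library, and the difference between the letters was not tested. Fgf8 was lower in library B than in library C of IWP2, at 0.695 times, and higher in library B of control, at 1.81 times. This difference between the lines rests on 1 pair of libraries each and was not tested.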

How the results depend on the processing

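The calls of T, Fgf8, Lhx1 and Nkx1-2 in Dkk1_KO against control held under each alternative run, while genes called there fell to 2725 with the Dkk1_KO libraries averaged to 1. For IWP2 against control the genes called were 1056 by DESeq2, 1220 with no filter on low counts, 219 by limma-trend, 12 in the 6 libraries outside Dkk1_KO and 10 with Dkk1_KO averaged. For IWP2_removed against control they were 663, 732, 104, 1 and 1 in that order, and 135 with the replicate number as a block. For IWP2_removed against IWP2 they were 388, 414, 5, 1 and 1, with 2 under the number block, 3 under the letter block and 2 with the letter block in 6 libraries. With no filter, 1 member was called in each of these comparisons (Evx1, Fgf8 and Nkx1-2 in that order). For letter B against C the genes called were 2979 with no filter, 392 by limma-trend and 0 with all 4 lines, where 0 members were called. T in IWP2 against control turned to -0.26 by limma-trend, -0.15 with the replicate number as a block, -0.13 with the letter block and -0.19 with the letter block in 6 libraries. The replicate block changed no member's call. Limma-trend also turned Lhx1 in IWP2_removed (-0.69 against control, -0.50 against IWP2), Cdx1 in IWP2 against control (-0.01) and Tbx6 in Dkk1_KO (-0.03). The cause of these changes was not tested. Of 417 values of single genes under alternatives, 371 kept their direction and side of the threshold, 35 reversed, 5 passed the threshold and 6 lost it.

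Leaving out 1 library at a time, with a lone library assumed to vary like the other groups, gave 6143 to 6277 genes for Dkk1_KO against control, 70 (without control replicate 2) to 2432 (without IWP2 replicate 1) for IWP2 against control, 14 to 37 for IWP2_removed against control, 0 to 454 for IWP2_removed against IWP2, and 344 (without IWP2_removed replicate 1) to 2040 (without IWP2 replicate 1) for the letters. The members called were 4 to 5, 0 to 1, 0 to 0, 0 to 0 and 3 to 4. Log2 fold changes of members that reversed ran as follows. In Dkk1_KO against control they were -1.9 to 2.5 for Mixl1 and -0.32 to 0.59 for Tbx6. In IWP2 against control they were -1.46 to 0.8 for T, -2.96 to 2.54 for Mixl1, -1.21 to 0.36 for Lhx1, -1.56 to 0.52 for Nkx1-2, -0.28 to 0.63 for Tbx6 and -3.86 to 4.24 for Cdx1. In IWP2_removed against control they were -0.67 to 4 for Mixl1, -0.38 to 0.48 for Lhx1 and -0.29 to 4.8 for Cdx1. In IWP2_removed against IWP2 they were -1.68 to 0.57 for T, -0.24 to 1.32 for Lhx1, -0.06 to 0.79 for Tbx6 and -0.41 to 4.74 for Cdx1. In the letters Fgf8 ran between -0.27 and 0.39. Depth limits Evx1, Mesp1, Cdx1 and Cdx4, with at most 18 reads in a group outside Cdx1 in Dkk1_KO.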
